A study of Ovis aries with 6 samples.

Results

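EPCAM, KRT8, CD24 and SFN are genes used to mark epithelial cells, and they were followed here in the cells that sheep shed into milk. Every row of the deposited table whose RefSeq accession matched one of these symbols was kept, which gave 4 transcripts, 1 for each gene, among 11285 genes with a symbol and 49705 transcripts in all. They were NM_001162564.1 for EPCAM, XM_012174208.2 for KRT8, XM_004011234.3 for CD24 and NM_001009208.1 for SFN. The genes were selected on their role as markers and on their log2 changes between diets in these same libraries, which were known when they were picked. Their differences between diets are therefore a description: fitted changes and counts of calls are printed for them, and nothing is supported with them.

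The cells came from 3 Comisana ewes, a dairy breed. The labels give day 90 of lactation without saying to which of the samplings it applies. The control group is the milk of these ewes on hay with a commercial concentrate for 3 weeks. The linseed group is the milk of the same ewes after a further 3 weeks on grass, hay and a concentrate with 20% extruded linseed in its dry matter. Each group has 3 libraries, 1 for each ewe, made from cells pelleted out of 250 ml of milk. All ewes received linseed second and together with grass, so linseed, the other changes of feed and stage of lactation cannot be told apart. No ewe stayed on the control diet. The labels give no field for diet, and libraries were placed by the letter in their titles.

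EPCAM is a membrane protein that joins neighbouring epithelial cells and binds claudin 7 at their borders. CD24 is a short, heavily glycosylated protein held in the membrane by a lipid anchor, found on epithelial cells and also on neutrophils and B cells. KRT8 encodes keratin 8, which pairs with keratin 18 in the intermediate filaments of simple epithelia such as the milk-secreting (luminal) layer of the mammary gland. SFN encodes 14-3-3 sigma, the 14-3-3 protein most restricted to epithelia, which holds phosphorylated partners in the cytoplasm and can arrest the cell cycle before mitosis. Milk somatic cells are a mixture of shed mammary epithelial cells, macrophages, neutrophils and lymphocytes. In such bulk samples, fewer cells of a type and less RNA per cell cannot be told apart.

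The values are RPKM, reads per kilobase of transcript scaled to the reads of the library. Library totals solved from the steps of the RPKM values were 4941935 to 22644050 reads, a 4.58-fold range. Milk protein transcripts took 48.1%, 36.0% and 4.44% of reads for sheep 1, 2 and 3 on the control diet and 30.3%, 23.7% and 1.28% with linseed, so both libraries of sheep 3 stood apart. A log2 change below is linseed minus control of log2(RPKM + 1), with the standard error (SE) of a limma fit across the 15891 transcripts that averaged 1 RPKM or more over the 6 libraries. All 4 markers passed that filter. Their read numbers were 116 to 6474 for EPCAM, 707 to 5302 for KRT8, 267 to 10950 for CD24 and 61 to 704 for SFN.

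The 4 markers did not move together between diets. CD24 and EPCAM had lower values on linseed in all 3 ewes. KRT8 was higher in 2 ewes and lower in the third, and SFN was higher in 1 ewe, lower in another and near its control value in the remaining animal. Without the sheep as a block, limma called 0 of the 4 at an adjusted p of 0.05, where 0% of all tested transcripts were called. With the sheep as a block it called 1 of the 4, CD24, where 2.62% of all transcripts were called. That call was lost in all 5 other settings fitted with the block, with adjusted p-values in limma of 0.0506 to 0.0963. Nothing is read from it, since the genes were selected on this comparison. Being lower in all 3 ewes, as EPCAM and CD24 were, applied to 26.2% of tested transcripts, and being higher in all 3 to 23%.

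**Figure D1:**
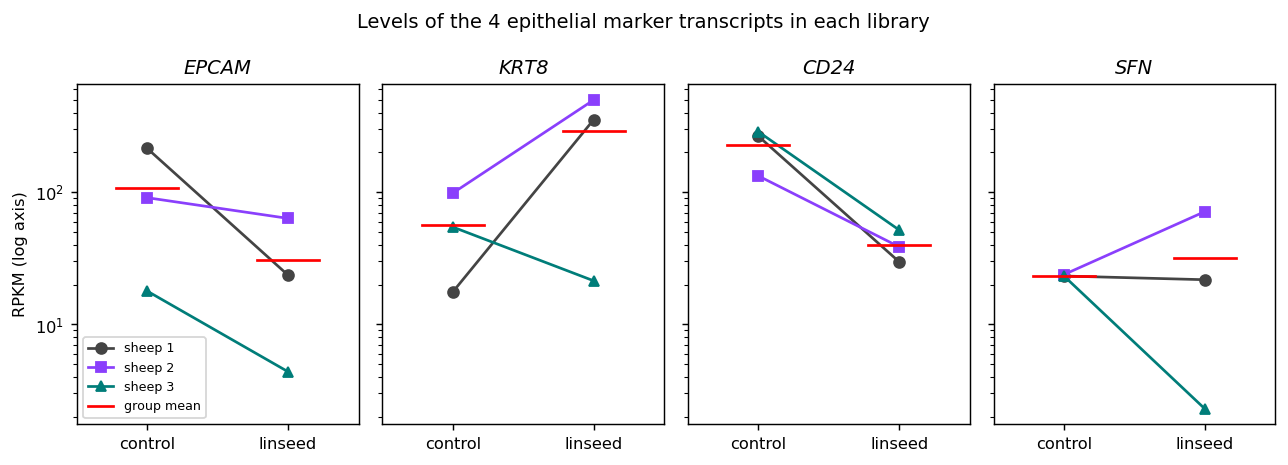
RPKM of the 4 marker transcripts (log axis) in the control and linseed libraries. Each line joins the libraries of 1 ewe and red bars are group means (n = 3); the linseed values of CD24 all lie below its control values, whereas EPCAM, KRT8 and SFN overlap between diets.

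EPCAM had 214.5, 90.9 and 17.8 RPKM for sheep 1, 2 and 3 on the control diet and 23.5, 63.4 and 4.37 RPKM with linseed. Sheep 1 was high and sheep 3 low among controls, and the diets overlapped, because linseed sheep 1 and 2 lay above control sheep 3. The level was 107.7 ± 99.4 RPKM in controls and 30.4 ± 30.1 RPKM with linseed (SD, n = 3), so each SD was about as large as its mean. Control values were 9.12, 1.43 and 4.08 times the linseed values in sheep 1, 2 and 3. The log2 change was -1.82 ± 1.04 (SE), and -0.86 without linseed sheep 3, -1.03 without control sheep 1 and -1.82 without both libraries of sheep 3. In rank, EPCAM exceeded 98.6% of tested transcripts in control sheep 1 but only 49.5% in linseed sheep 3, where its RPKM rested on 116 reads.

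CD24 had 265.3, 132.8 and 286.9 RPKM for sheep 1, 2 and 3 on the control diet and 29.6, 38.5 and 51.7 RPKM with linseed. It was the only marker whose groups did not overlap: every linseed library lay below every control library, a pattern found in 7.83% of tested transcripts. The mean was 228.3 ± 83.4 RPKM in controls and 39.9 ± 11.1 RPKM with linseed (SD, n = 3). Control values were 8.95, 3.45 and 5.56 times the linseed values in the 3 ewes, and the log2 change was -2.44 ± 0.61 (SE), or ± 0.58 with the block. Across 23 other settings of the fit the change lay between -2.93 and -2.11, with -2.44 when both libraries of sheep 3 were left out. Unlike EPCAM, CD24 was highest in sheep 3 under both diets, the ewe with the smallest share of milk protein reads. Its rank hardly differed among linseed libraries, in which it exceeded 89.1% to 89.7% of tested transcripts.

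KRT8 had 17.6, 98.6 and 54.5 RPKM for sheep 1, 2 and 3 on the control diet and 354.9, 500 and 21.3 RPKM with linseed. The linseed libraries of sheep 1 and 2 exceeded every control library, and that of sheep 3 lay below the control library of the same ewe. The linseed level was 20.2 times the control level in sheep 1 and 5.07 times in sheep 2, whereas in sheep 3 the control level was 2.55 times the linseed level. Group means were 56.9 ± 40.5 and 292 ± 245.4 RPKM (SD, n = 3), and the log2 change was 1.76 ± 1.10 (SE). It was 3.17 without linseed sheep 3, 3.29 without both libraries of sheep 3 and 0.51 without those of sheep 1. The same direction in each ewe, up in sheep 1 and 2 and down in sheep 3, was that of 14.7% of tested transcripts. How the authors divided reads between KRT8 and other keratin genes or copies of it is not given in the sources used here.

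SFN had 23.2, 23.8 and 23.2 RPKM for sheep 1, 2 and 3 on the control diet and 21.7, 71.4 and 2.29 RPKM with linseed. The control libraries were almost equal on this scale, while the linseed libraries spanned both sides of them. The coefficient of variation (SD over mean) was 1.57% in controls and 112% with linseed. The control value is smaller than the counting error of the 704, 281 and 329 reads of SFN behind it, which was 3.77%, 5.97% and 5.51%. The closeness held on the RPKM scale only: with milk proteins out of the library totals, the control levels of SFN were 44.7, 37.2 and 24.2 RPKM. The mean went from 23.4 ± 0.37 to 31.8 ± 35.6 RPKM (SD, n = 3), yet the log2 change was -0.47 ± 0.95 (SE), so mean and log2 change differed in sign. Without linseed sheep 3 the log2 change was 0.73, so that 1 library, with 61 reads of SFN, set the direction.

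The order of the markers by RPKM, which is per length, differed between diets. In controls CD24 had the highest mean level, followed by EPCAM, KRT8 and SFN. Each neighbouring pair in this order lay within its standard deviations, and SFN was the lowest marker in control sheep 2 but not in the other controls. With linseed, KRT8 had the highest mean, followed by CD24, SFN and EPCAM, again with neighbours within their spread. In single linseed libraries KRT8 led in sheep 1 and 2, and CD24 led in sheep 3.

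Ratios within a library do not depend on how it was scaled. The ratio of KRT8 to EPCAM was 0.0821, 1.08 and 3.06 for sheep 1, 2 and 3 on the control diet and 15.1, 7.89 and 4.88 with linseed. All linseed ratios lay above all control ratios, as did those of 9.77% of tested transcripts set against EPCAM. The ratio of KRT8 to SFN was 0.759, 4.14 and 2.35 in controls and 16.3, 7 and 9.34 with linseed, again without overlap, where 4.83% of transcripts did the same. The markers of both pairs were selected with their diet changes known, so nothing is read from these separations. The ratios of CD24 to SFN, SFN to EPCAM and KRT8 to CD24 overlapped between diets. The ratio of CD24 to EPCAM separated ewes rather than diets: it was 16.1 and 11.8 in the control and linseed libraries of sheep 3 and 0.608 to 1.46 in the other libraries. Across the 6 libraries, log2 levels of the pairs correlated at 0.69 for SFN and EPCAM, 0.66 for SFN and KRT8, 0.39 for CD24 and EPCAM, 0.08 for KRT8 and EPCAM, 0.06 for SFN and CD24 and -0.65 for CD24 and KRT8. These are descriptions over 6 libraries of 3 ewes, which share animals and depth.

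The markers were also set against yardsticks from the same libraries: the median of 11 measured luminal genes, the claudin gene CLDN7, and the sum of 4 casein genes. Whether any of these measures epithelial content was not tested. EPCAM stood at 0.702, 0.679 and 0.738 times CLDN7 for sheep 1, 2 and 3 on the control diet and at 0.205, 0.266 and 0.324 times with linseed. The control ratios were close to one another although EPCAM itself spanned 17.8 to 214.5 RPKM in those libraries, and all linseed ratios were lower, as for 0.812% of tested transcripts. CLDN7 was taken as a yardstick after the data were seen, and EPCAM was selected with its lower linseed values known. Nothing is therefore read from the separation of its ratios or from these shares. Against the luminal median the ratios were 5.77, 7.49 and 4.03 in controls and 3.77, 3.84 and 1.58 with linseed, again without overlap (0.686% of transcripts). The gene at that median differed among libraries. It was OCLN in control sheep 1, KLF5 in control sheep 3, SPINT1 in linseed sheep 1 and AP1M2 in the others. OCLN and KLF5 had the lowest fitted changes of the luminal list, and nothing is read from this separation either. Against the caseins the diets did not separate. EPCAM had 0.59, 0.329 and 0.6 RPKM per 1000 RPKM of casein in controls and 0.344, 0.65 and 0.587 with linseed, a mean log2 difference of 0.06.

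Against all 3 yardsticks KRT8 had a higher mean log2 ratio with linseed, by 2.71, 2.25 and 3.74 for the luminal median, CLDN7 and the caseins, but the diets separated only against the caseins. It had 0.0484, 0.357 and 1.83 RPKM per 1000 RPKM of casein for sheep 1, 2 and 3 on the control diet and 5.18, 5.13 and 2.87 with linseed. No overlap in this direction was seen for 9.86% of transcripts set against the caseins, and nothing is read from it, since KRT8 was selected on its diet change. The casein sum itself was lower with linseed in each ewe. In sheep 3 it was 29721 RPKM in the control library and 7439 RPKM with linseed. KRT8 was lower there too, at 54.5 and 21.3 RPKM, so its ratio in that ewe rose through the lower caseins. Against CLDN7, KRT8 had 0.0576, 0.736 and 2.25 in controls and 3.09, 2.1 and 1.58 with linseed, which overlapped through control sheep 3. CD24 had ratios to CLDN7 of 0.868, 0.992 and 11.9 in controls and 0.258, 0.162 and 3.83 with linseed. In each ewe the ratio was lower with linseed, but sheep 3 was far above the others under both diets. SFN showed no common direction, with 0.0759, 0.178 and 0.958 times CLDN7 in controls and 0.189, 0.3 and 0.169 with linseed.

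**Figure D2:**
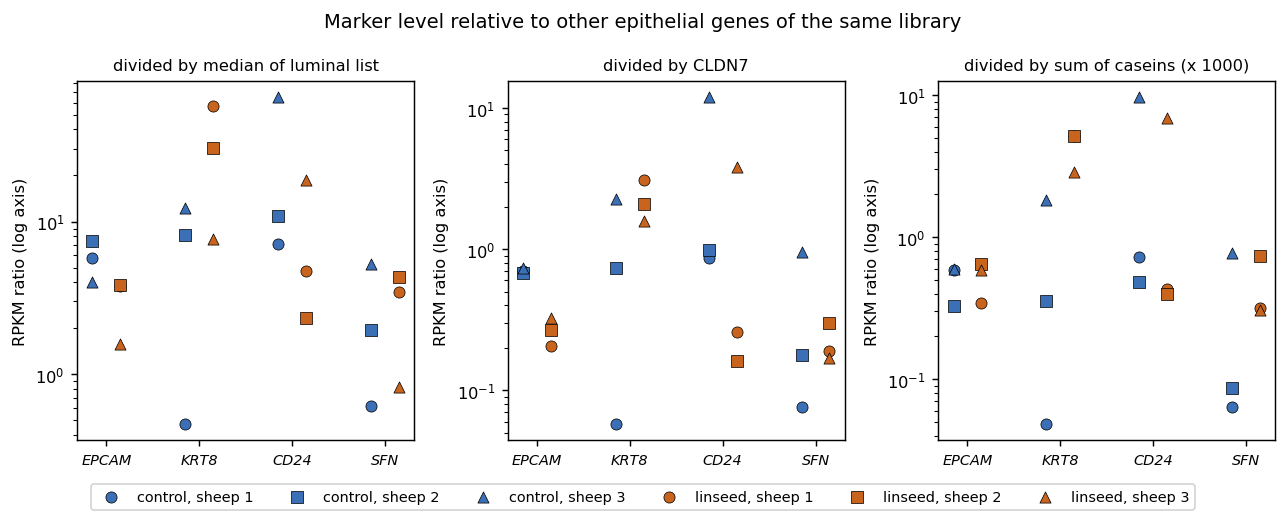
RPKM of each marker divided by the median of 11 luminal genes, by CLDN7 or by the sum of 4 caseins (times 1000) in the same library, on log axes, with 1 symbol per ewe. EPCAM over CLDN7 is 0.679 to 0.738 in controls and 0.205 to 0.324 with linseed, while EPCAM over caseins overlaps between diets.

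The markers were also correlated with the other luminal genes over the 6 libraries. Of 31 listed genes, 13 had a matched transcript and 11 were tested; KRT18, KRT19, KRT7 and CDH1 had no match and are not analysed here. EPCAM had a median correlation of 0.82 over the 11 genes and a lowest value of -0.02 with the transcription factor gene GATA3. SFN had a median of 0.68, from 0.19 to 0.86. KRT8 had a median of 0.21, from -0.59 with KLF5 to 0.72 with PGR, the progesterone receptor gene. CD24 had a median of 0.28, from -0.36 with PGR to 0.83 with KLF5. With 11 milk protein genes the medians were 0.93 for EPCAM, 0.72 for SFN, 0.24 for KRT8 and 0.31 for CD24. The markers were selected on changes in these same libraries, and correlations over all transcripts were not set beside these values. Whether the label of epithelial marker holds for each gene in these samples was not tested.

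The luminal list itself went both ways. Of the 11 genes, 0 were higher and 4 lower with linseed in all 3 ewes, where 23% and 26.2% of all tested transcripts were. Limma called 0 of the 11 with or without the block. Their median log2 change was -0.55, against -0.12 over all tested transcripts. By ewe the median was -1.28, 0.55 and -1.18. Leaving out 1 library gave medians from -1.37 to -0.15. The tight junction gene CLDN3 had 167.9, 87.9 and 20.5 RPKM in controls and 282.5, 506.7 and 7.30 with linseed, which is the direction of KRT8 in each ewe. CLDN7 had 305.5, 133.9 and 24.2 RPKM in controls and 114.9, 238 and 13.5 with linseed. ELF5, a transcription factor of milk-secreting cells, had log2 changes of -0.23, -0.61 and -2.46 in the 3 ewes. OCLN, which encodes the tight junction protein occludin, and the transcription factor gene KLF5 had the lowest fitted changes, -2.26 and -2.41; both were named after their values were seen.

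**Figure D3:**
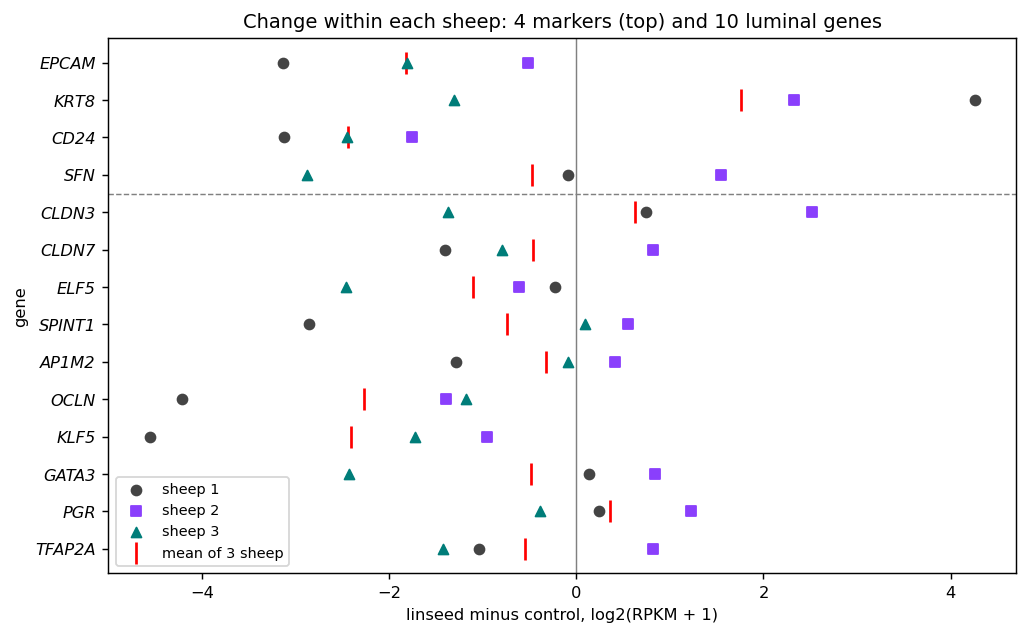
Linseed minus control on the log2(RPKM + 1) scale in each ewe for the 4 markers and, under the dashed line, 10 of the 11 measured luminal genes; red ticks are means of the 3 ewes. EPCAM and CD24 lie left of 0 in all 3 ewes, and KRT8 reaches 4.26 in sheep 1 and -1.31 in sheep 3.

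Of the keratin genes other than KRT8, 6 were measured, by a search of symbols made after the data were seen. None was lower in all ewes, where 26.2% of all tested transcripts were. Of the 6, 2 were higher in all 3 ewes (23% of all transcripts) and 2 went the way of KRT8 (14.7%). KRT23 and KRT6A did neither, with fitted log2 changes of -0.19 and -0.14. KRT15, a keratin of progenitor and basal cells, had 138.7, 97.4 and 58.0 RPKM in controls and 310.6, 376.9 and 15.5 with linseed. KRT13 had log2 changes of 1.34, 2.38 and -0.17 in the 3 ewes. The basal keratins KRT17 and KRT14 were higher in each ewe, with fitted log2 changes of 1.43 and 1.25, from low levels in sheep 3 (0.805 and 0.676 RPKM in its control library). In the basal list, 5 of 16 genes were tested, 2 were higher and 1 lower in all ewes, and the median change was 0.17. The smooth muscle gene ACTA2 had 0.685 to 6.91 RPKM in every library, and the laminin gene LAMA3 had a fitted change of -1.20. Of 5 claudins measured, CLDN3 and CLDN6 shared the direction of KRT8 in each ewe, CLDN1 was lower in all (-1.30) and CLDN15 higher in all (0.77).

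The tested genes of cell junctions had negative fitted changes, and whether they differ from other transcripts was not tested. Of 20 listed, 7 were tested. Of these, 4 were lower and 0 higher in all 3 ewes, where 26.2% and 23% of all tested transcripts were. Every linseed library lay below every control library for 3 of the 7, where 7.83% of all transcripts did so. None was called with or without the block, and the median log2 change was -1.07. PERP, a desmosome gene, had 115.2, 28.0 and 15.8 RPKM in controls and 5.35, 11.4 and 4.13 with linseed. F11R, which encodes the junctional adhesion molecule A, had a fitted change of -1.07, the receptor gene CXADR -0.80 and beta-catenin (CTNNB1) -1.36, the last 2 not lower in sheep 3.

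SFN was set beside the other 14-3-3 genes and genes of its pathway. Of 6 other 14-3-3 genes, YWHAZ and YWHAH were measured. YWHAZ, which most cell types make, had 88.6, 107.2 and 175.3 RPKM in controls and 20.7, 46.4 and 104.6 with linseed, lower in each ewe, and YWHAH had a fitted log2 change of -0.68. YWHAZ was highest in sheep 3 under both diets, whereas the linseed value of SFN was highest in sheep 2. Of 13 listed genes of cell cycle arrest and G2 control, 8 were tested, with a median change of -0.80. Of the 8, 6 were lower and 0 higher in all ewes, where 26.2% and 23% of all tested transcripts were. CDKN1A, a cell cycle inhibitor, had a fitted change of -0.73, GADD45A -1.59 and TRIM25, which marks SFN protein for degradation, -0.87. No member was called without the block. With it 1 was called, the kinase gene WEE1 (-2.41), named because it was the only call, where 2.62% of all transcripts were called. Of 5 other settings fitted with the block, 4 called 0 transcripts of any kind.

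Of genes whose products bind or act with CD24, 2 of 7 were measured. LYN, which encodes a Src-family kinase that associates with CD24, had 5.83, 9.71 and 24.5 RPKM in controls and 3.64, 3.80 and 18.2 with linseed. It was lower in all 3 ewes, by 0.71 on the log2 scale in the fit. SELP, which encodes the adhesion receptor P-selectin that binds CD24, lay at 0 to 3.45 RPKM and had a fitted change of -0.20. Both were lower in all 3 ewes, as were 26.2% of all tested transcripts, and 0 were called.

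The genes most like each marker were sought among 2496 genes with a symbol and a mean of at least 10 RPKM, by the correlation of log2(RPKM + 1) over the 6 libraries. For EPCAM they included AIF1L (0.99), beta-casein CSN2 (0.98) and alpha-S1-casein CSN1S1 (0.97). CSN2 had 119861, 70662 and 8144 RPKM in controls and 20493, 29881 and 2291 with linseed, the same order of libraries as EPCAM. For KRT8 they were LOC101112249 (0.98), LOC101120489 (0.96), the mitochondrial carrier gene SLC25A29 (0.96), LOC101107098 (0.94) and the epithelial galectin gene LGALS7 (0.93). LGALS7 had 2.99, 7.50 and 2.02 RPKM in controls and 25.7, 66.3 and 0.332 with linseed, so it too was high in linseed sheep 1 and 2 alone.

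For CD24 the most similar genes were CHMP2B (0.98), TMOD3 (0.97), SYNCRIP (0.97), PPP4R3B (0.97) and RNFT1 (0.97). These are broadly expressed genes of membrane sorting, actin capping, RNA binding and protein turnover, and none is on the luminal list. CHMP2B had 30.1, 13.7 and 28.6 RPKM in controls and 1.36, 3.87 and 6.22 with linseed. For SFN they were C15H11orf96 (0.94), LOC101121387 (0.93), LOC101120455 (0.93), the small GTPase gene RASD1 (0.93) and the stress gene GADD45G (0.93). With so few libraries many genes reach such values, and the likeness is a description of these samples.

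**Figure D4:**
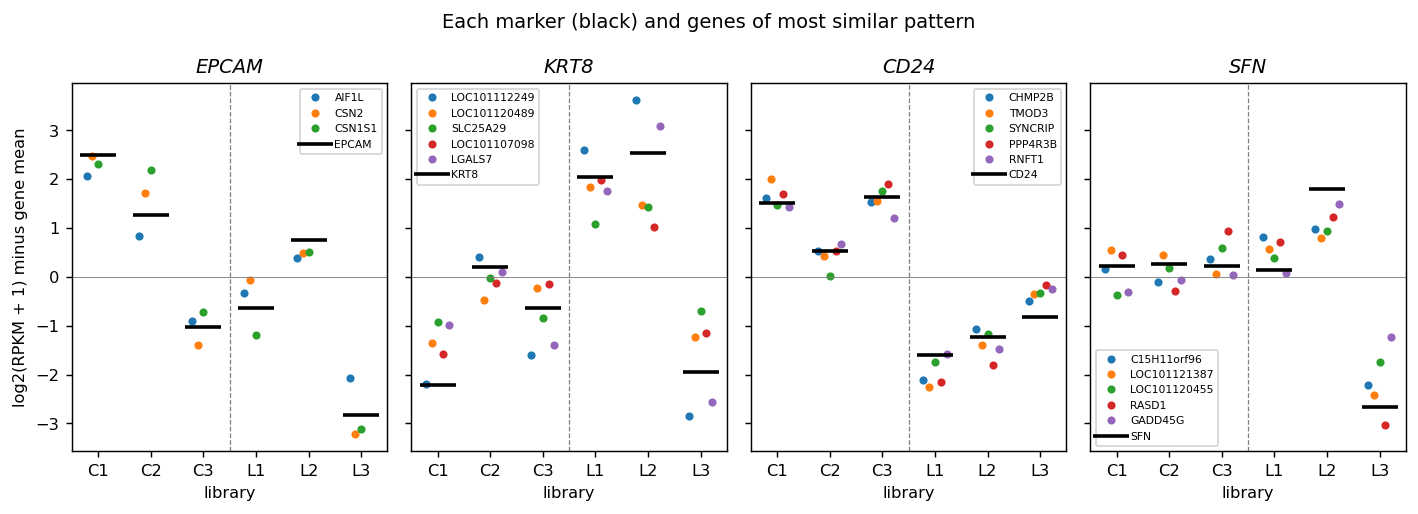
log2(RPKM + 1) minus the gene's mean in each library (C, control; L, linseed; the number is the ewe) for each marker (black bar) and genes of its 5 most similar (dots; 3 are shown for EPCAM). The genes beside EPCAM are highest in control sheep 1, those beside KRT8 peak in linseed sheep 1 and 2, those beside CD24 are low in all linseed libraries, and those beside SFN are lowest in linseed sheep 3.

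Markers of other cells moved along with diet and ewe, and their part in the values above was not tested. Beside the counts below, 26.2% of all tested transcripts were lower and 23% higher with linseed in all 3 ewes. Summed RPKM of the 11 luminal genes was 939.6, 395.2 and 114.5 for sheep 1, 2 and 3 on the control diet and 501.6, 910.1 and 42.4 with linseed. It was highest in control sheep 1 and linseed sheep 2 and lowest in both libraries of sheep 3. Milk proteins, with 11 genes, had 444814, 344439 and 42550 RPKM in controls and 355947, 261035 and 12878 with linseed; 7 were lower and 0 higher in all ewes. The 7 macrophage genes summed to 101.9, 717.7 and 467.2 RPKM in controls and to 917.5, 1111 and 1603 with linseed, and 4 were higher and 1 lower in all ewes. CD68 was the most abundant of them, with a fitted change of 1.55. MRC1, the gene lower in all ewes, had a fitted change of -1.605 and was at 0 in linseed sheep 1. CD14 and MSR1 had no common direction, with fitted changes of 0.177 and -0.453. TREM2, a lipid-binding receptor gene of macrophages, had 6.75, 83.0 and 13.5 RPKM in controls and 304, 257.6 and 276.9 with linseed. It was the 1 gene of the list that limma called with the block, where 2.62% of all transcripts were called, and 0 were called without it. Of 5 other settings fitted with the block, 4 called 0 transcripts, TREM2 included. C1QA, which encodes a chain of complement C1q, had a fitted change of 2.98. For both genes every linseed library lay above every control library, as for 13.3% of tested transcripts.

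The 5 neutrophil genes summed to 421.6, 773.9 and 954.3 RPKM in controls and to 3187, 2576 and 2314 with linseed, led by S100A9 and S100A8, and 4 were higher and 0 lower in all ewes. FCGR3A, an Fc receptor gene of this list that other leukocytes also express, had log2 changes of 1.30, -0.46 and -0.12 in the 3 ewes. The 5 B cell genes summed to only 1.37, 26.7 and 8.60 RPKM in controls and to 6.35, 26.3 and 11.4 with linseed, led by JCHAIN and CD79A; 2 were higher and 1 lower in all ewes, and BLNK was at 0 in linseed sheep 1. The 5 T and NK cell genes, led by CD3E and CD247, summed to 7.32, 155.8 and 519 RPKM in controls and to 79.3, 58.3 and 123.4 with linseed, and 1 was lower and 0 higher in all ewes. Sheep 3, where CD24 was highest, had the highest T and NK cell sum under both diets. In control sheep 1 CD24 had 265.3 RPKM, against 286.9 RPKM in control sheep 3, and that sum was the lowest of all. Which cells carried the CD24 transcript was not tested. The median correlation of CD24 was 0.368 with T and NK cell genes, -0.469 with B cell, -0.515 with neutrophil and -0.673 with macrophage genes. Single genes ranged from -0.093 to 0.570 for T and NK cells and from -0.699 to 0.061 for B cells. The ranges were -0.969 to 0.119 for neutrophil and -0.954 to 0.712 for macrophage genes. No stromal gene of 6 passed the filter, and the endothelial genes PECAM1 and KDR had fitted changes of 0.31 and -0.18.

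**Figure D5:**
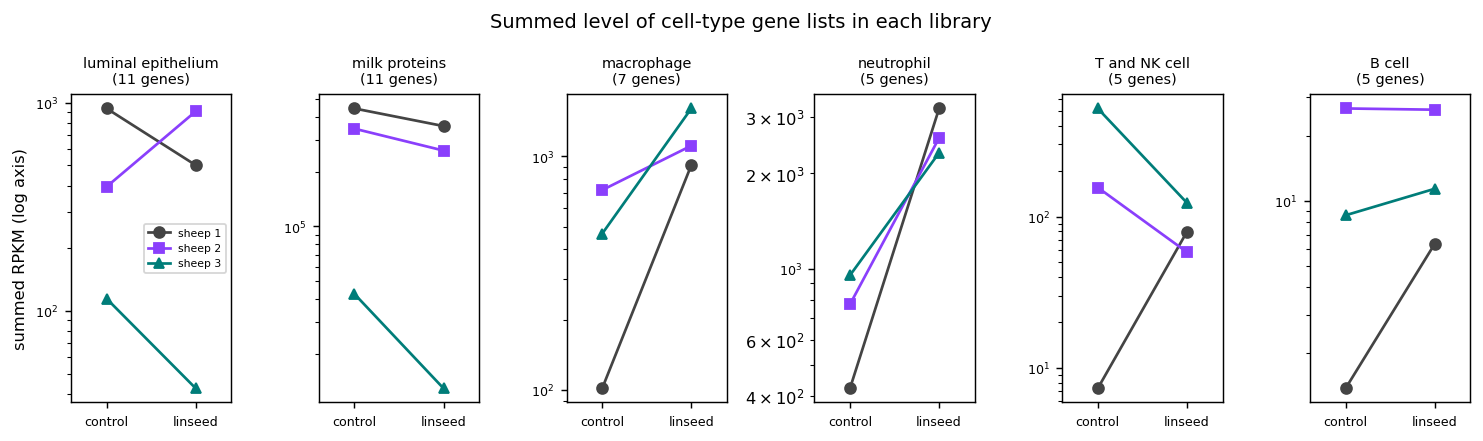
Summed RPKM (log axes, each with its own range) of luminal, milk protein, macrophage, neutrophil, T and NK cell and B cell genes in each library, with lines joining the libraries of 1 ewe. Neutrophil and macrophage sums are higher with linseed in all 3 ewes, while the luminal sum is higher only in sheep 2.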

How the data were processed

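The authors deposited 1 table of RPKM values for 49705 RefSeq transcripts in 6 libraries. Per the submitters' processing notes, Trimmomatic 0.33 was used for trimming. The aligner, counting tool and build were not given in the sources used here. Symbols came from the RefSeq table of assembly ARS-UI_Ramb_v3.0 by accession without version, and 15836 transcripts (31.9%) matched; whether the authors used that build is not stated, so no coordinates are given. Library totals, lengths and reads were solved from the RPKM steps (tolerance 0.002 reads; lengths found for 15890 of 15891 tested transcripts). This and the fit were tested on simulated data. Log2(RPKM + 1) of transcripts averaging 1 RPKM or more was compared with limma 3.58.1 in R 4.3.3 (trend, Benjamini-Hochberg, 0.05), and tables and plots were made in Python 3.11.15. The pseudocount understates changes of low transcripts.

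The same animals gave both groups, so sheep numbers pair the libraries. After subtraction of group means, paired libraries had correlations of 0.18, 0.25 and 0.40 in sheep 1, 2 and 3, while control sheep 1 and linseed sheep 2 had 0.24. Residual degrees of freedom were 4 without the block and 2 with it. The members and lists were chosen with earlier results of these data known. Each gene of a list entered by its most abundant transcript. Named genes were the markers, the 4 most abundant genes of each list, any gene called without the block, CLDN7 and YWHAZ, and the 5 genes most like each marker; a few genes that this rule takes are not reported here, though counts and medians of lists include them. Alternatives changed the pseudocount, filter, scaling, length correction, voom on solved reads, the block and the libraries included. Genes named for a call with the block alone, WEE1 and TREM2, were added after their values were seen. Precision is limited by 3 ewes a group and by read numbers, as low as 61 for SFN.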

Additional observations from a re-analysis of the deposited data

How the results depend on the processing

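Without the block, limma called 0 transcripts in all settings, including each library or ewe left out, although 2464 had an unadjusted p under 0.05. With the sheep as a replicate block it called 416, and with the block and milk proteins out of the total, tried after seeing the data, 152. The block joined with the length correction, quantile normalization, a pseudocount of 0.1 or voom called 0 transcripts each. The blocked call of CD24 was lost when the block was joined with the length correction, milk proteins out of the total, quantile normalization, a pseudocount of 0.1 or voom. The signs of EPCAM, KRT8 and CD24 held in all 23 settings. Their ranges were -2.79 to -0.86, 0.51 to 3.29 and -2.93 to -2.11. Several of these settings could not alter a value, since a filter or, outside voom, the block leaves a fitted change as it was. The genes were selected on these changes, so nothing is read from the held signs. SFN ranged from -1.50 to 0.735 and turned without linseed sheep 3 (0.735) and without both libraries of sheep 3 (0.73). Milk proteins out of the total moved the median of all transcripts from -0.12 to -0.28. Relative to that, EPCAM, CD24 and SFN stayed lower (-2.07, -2.69 and -0.71) and KRT8 higher (1.53). The level of EPCAM relative to other epithelial genes had a log2 difference of -0.98 against the luminal median and 0.057 against the caseins. Division by KRT18 was not run, as it has no matched transcript, and CLDN7 was used in its place after the data were seen. The sign of SFN relative to CLDN7 (-0.14) was opposite to that relative to the luminal median (0.32).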
